A study of Mus musculus with 9 samples.

Results

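Leukocyte adhesion molecules and chemokines were followed after photodynamic treatment (PDT) in B.END3 cells, which the authors describe as cerebrovascular endothelial cells of the mouse. The group holds 10 genes chosen by name, namely the selectin Sele, the immunoglobulin-type adhesion molecules Icam1 and Vcam1, and the chemokines Ccl2, Ccl7, Cxcl1, Cxcl5, Cxcl10, Cxcl12 and Cx3cl1. All 10 were found once among the 54532 Ensembl genes listed. Total RNA was sequenced from 9 libraries, with 3 from untreated cells (Ctrl), 3 from cells lit with 10 J/cm2 (Ep1) and 3 from cells lit with 20 J/cm2 (Ep2). Both treated groups received 300 µg/mL of porfimer sodium, a porphyrin photosensitizer that forms reactive oxygen species under light, for 90 min before 635 nm laser light at 100 mW/cm2. The labels give mouse, C57BL/6, for all 3 groups, although the culture protocol calls the cells rat, and the genes listed are those of the mouse. No library here received the drug or the light alone, so that the effects of drug and light cannot be told apart. The time between light and lysis is not given for these libraries. The labels do not say whether the replicates were separate cultures, so p-values measure the spread between these libraries, which may be technical.

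Endothelial cells recruit leukocytes in steps. E-selectin lets them roll, chemokines bound at the vessel wall switch on their integrins, and the integrin ligands ICAM-1 and VCAM-1 hold them firmly. Many of these genes are low in resting brain endothelium and are known to be induced by TNF, interleukin 1 and interferons through NF-κB, AP-1 and interferon-responsive factors.

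Expression was given by the authors in FPKM, a fragment count scaled for gene length and library size. Of the 10 genes, 7 reached 1 FPKM in at least 3 libraries and were tested with limma on log2(FPKM + 1), in 1 fit of all 9 libraries over 11727 genes, with Benjamini-Hochberg adjustment. The genes Icam1, Cxcl5 and Cxcl12 did not reach that level. A gene was called changed at an adjusted p below 0.05, and a DEG where its absolute log2 fold change was also above 0.6. Fold changes on the log2(FPKM + 1) scale understate the change of low genes. The libraries held between 16240688 and 19509225 fragments.

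The cells were checked against marker genes. Of 20 endothelial markers, 5 passed the filter, led by Flt1 at a mean of 8.34 FPKM, and the summed level of the list was 13.7 to 14.2 FPKM over the Ctrl libraries, 14.0 to 15.7 over Ep1 and 17.4 to 19.0 over Ep2. Defining markers were low, with Pecam1 at 0.0821 to 0.192 FPKM in Ctrl, and Erg, Emcn, Robo4 and Sox17 had 0 fragments in every library. By these markers, the libraries did not show a typical endothelial profile, and the identity of the cells was not tested. The epithelial keratin Krt8 stood at 562 FPKM or more in every library. The 12 epithelial markers summed to 1030 to 1080, 938 to 1040 and 1160 to 1370 FPKM in the same order, with 3 of them at 0. The sum was mostly keratin, with means over all libraries of 628 FPKM for Krt8, 262 for Krt18 and 203 for Krt19. Other epithelial markers were low, with Epcam at a mean of 1.13 and Cdh1 at 0.0434 FPKM, and 7 of the 12 did not pass the filter. Of the 5 tested, 4 were higher in Ep2 than in Ctrl, where 23.9% of all tested genes were. Krt8 did not pass (adjusted p 0.53 in limma). The 12 leukocyte markers summed to 43.2 to 44.0, 37.5 to 46.6 and 105 to 114 FPKM, with 3 of the 12 past the filter. The macrophage-associated gene Cd68 rose in Ep2, from a mean of 23.8 FPKM for Ctrl to 83.6 (log2 fold change 1.77, adjusted p 2.17e-06 in limma), and so did Itgb2, the leukocyte integrin subunit that pairs to bind ICAM-1, from 13.7 to 18.5 FPKM (0.40, adjusted p 0.0142). Ly6g averaged 6.01 FPKM for Ctrl and 6.92 for Ep2 and did not pass (adjusted p 0.135). The pan-leukocyte gene Ptprc had 4 fragments over all libraries, and Itgam, Cd3e and Tyrobp had 0. The 12 mural and fibroblast markers summed to between 37.5 and 50.6 FPKM and the 10 neural and glial markers to between 1.25 and 2.69 FPKM over the 9 libraries, with 2 and 3 of them at 0. The part that these shifts in marker levels had in the results was not tested. In such bulk libraries, fewer cells with a transcript and less transcript per cell cannot be told apart.

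The sequences just upstream of the start sites are shown for 3 genes, Sele because it rose at both doses, Cxcl10 because it was the member that was lower in Ep2 than in Ep1, and Cxcl1 as a tested chemokine of the same chromosome that passed no test. Each is the 250 bases before the RefSeq start on GRCm38.p6, 5′ to 3′ on the strand of the gene, at chr1:164047984-164048233 on the plus strand for Sele, chr5:92348890-92349139 on the minus strand for Cxcl10 and chr5:90890995-90891244 on the plus strand for Cxcl1. Capitals mark matches to motifs.
Sele: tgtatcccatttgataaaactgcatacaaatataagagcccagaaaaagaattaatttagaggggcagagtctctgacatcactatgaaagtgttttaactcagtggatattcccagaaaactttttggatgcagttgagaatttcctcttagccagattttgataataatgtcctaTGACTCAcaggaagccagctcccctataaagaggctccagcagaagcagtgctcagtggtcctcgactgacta
Cxcl10: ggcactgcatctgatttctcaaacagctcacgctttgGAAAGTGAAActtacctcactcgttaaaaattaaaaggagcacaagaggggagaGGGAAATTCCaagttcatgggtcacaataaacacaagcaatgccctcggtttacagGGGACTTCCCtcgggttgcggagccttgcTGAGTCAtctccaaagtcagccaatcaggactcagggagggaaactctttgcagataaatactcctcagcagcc
Cxcl1: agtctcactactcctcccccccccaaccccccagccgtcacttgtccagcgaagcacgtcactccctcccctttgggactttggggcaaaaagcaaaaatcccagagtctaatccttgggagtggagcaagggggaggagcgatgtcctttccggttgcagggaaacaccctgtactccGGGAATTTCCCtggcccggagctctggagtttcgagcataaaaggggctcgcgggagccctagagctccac

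The motifs searched on both strands were the NF-κB consensus, the AP-1 site TGANTCA, the cAMP response element TGACGNCA and the core of the interferon-stimulated element. The search ran over windows of 250 bases before to 50 after the start. The Sele window held 1 AP-1 match at -73 to -67 from the start. The Cxcl10 window held 2 NF-κB matches at -159 to -150 and -103 to -94, 1 AP-1 match at -74 to -68 and 1 interferon element core at -213 to -204. The Cxcl1 window held 2 NF-κB matches that overlap each other, at -71 to -62 and -70 to -61. Windows were found for 6 of the 10 genes, and those of Icam1, Cxcl12 and Cx3cl1 held no exact match. Among all 32851 windows, 4.51% held the NF-κB consensus, 7.81% the AP-1 site, 3.21% the cAMP response element and 3.44% the interferon element core. A match is a description of the letters and does not show that a factor bound there. Sites that differ from these patterns were not searched, so a window without a match may still hold one.

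The 10 genes spanned a wide range of levels. Ccl2 was the highest at a Ctrl mean of 169 FPKM, above 97.8% of the tested genes by its mean over all libraries, and Cx3cl1 followed at 29.9 FPKM. Cxcl1 and Sele came next in Ctrl at 8.06 and 7.07 FPKM, and their libraries overlapped, as did those of Ccl7 at 5.01 and Vcam1 at 4.68 FPKM. Cxcl10 at 2.19, Cxcl5 at 0.884, Icam1 at 0.112 and Cxcl12 at 0 FPKM closed the order. Each of these neighbours was separated from the next by its Ctrl libraries. In Ep2, Sele had moved to the third place, above the overlapping Ccl7 and Cxcl1.

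**Figure D1:**
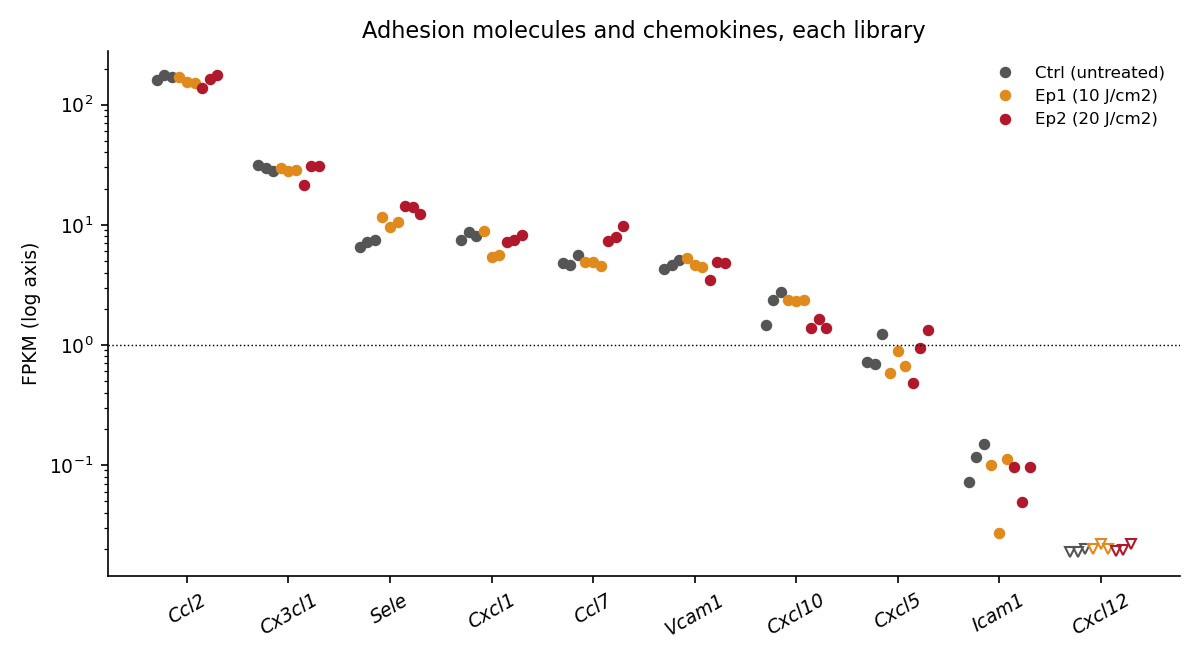
FPKM on a log axis of the 10 genes in each library, with Ctrl in grey, Ep1 in orange and Ep2 in red, ordered by mean level. The dotted line marks 1 FPKM, and the open triangles of Cxcl12 stand at the level of 3 fragments, which a count of 0 allows.

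Sele encodes E-selectin, the selectin that endothelial cells make on activation and to which rolling leukocytes bind (ENSMUSG00000026582, chromosome 1, 164048234 to 164057677, GRCm38). Its level rose at both doses and was higher at the higher dose. The Ctrl libraries held 6.57, 7.16 and 7.49 FPKM. Those of Ep1 held 11.7, 9.64 and 10.6 FPKM, and those of Ep2 held 14.4, 14.1 and 12.4 FPKM. No library of a group overlapped with another group, and each value rested on 369 to 799 fragments. The means were 7.07 ± 0.465 FPKM for Ctrl (SD, n = 3), 10.6 ± 1.01 for Ep1 and 13.6 ± 1.07 for Ep2, which is 1.5-fold and 1.93-fold of Ctrl. The log2 fold change in Ep1 was 0.52 (95% interval 0.35 to 0.70), with an adjusted p of 0.00873 in limma, so that the rise passed the test but was below the fold of a DEG. In Ep2 it was 0.86 (0.68 to 1.04), with an adjusted p of 2.97e-05, and Sele was a DEG. The difference between the doses, 0.33 (0.15 to 0.51), passed the test with an adjusted p of 0.00783. These calls passed the adjusted p under each of the 17 alternatives.

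Icam1 and Vcam1 encode the integrin ligands for firm adhesion, and neither showed a change. Icam1 (ENSMUSG00000037405, chromosome 9, 21015985 to 21028817) was near the limit of detection. Its libraries held 2 to 12 fragments each, or 0.0273 to 0.148 FPKM, with means of 0.112, 0.0793 and 0.0807 for Ctrl, Ep1 and Ep2, so a change of moderate size was not detectable at this depth. Vcam1 (ENSMUSG00000027962, chromosome 3, 116109949 to 116129688) held 4.3, 4.66 and 5.08 FPKM in Ctrl. Its Ep1 libraries held 5.31, 4.66 and 4.46 FPKM and its Ep2 libraries 3.5, 4.88 and 4.76 FPKM, so that the groups overlapped. The log2 fold change of Vcam1 was 0.03 in Ep1 (-0.21 to 0.27, adjusted p 0.876) and -0.09 in Ep2 (-0.33 to 0.15, adjusted p 0.521).

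Ccl2 and Ccl7 are the CC chemokines MCP-1 and MCP-3, which draw monocytes through CCR2, and their genes lie 8.26 kb apart on chromosome 11. Ccl7 rose in Ep2 while the far more abundant Ccl2 did not pass the test. Ccl7 (ENSMUSG00000035373, 82045712 to 82047525) held 4.79, 4.6 and 5.65 FPKM in Ctrl. Its Ep1 libraries were alike at 4.87, 4.91 and 4.51 FPKM. In Ep2 it held 7.34, 7.87 and 9.85 FPKM, above every library of Ctrl and Ep1. These values rest on 66 to 131 fragments per library. The means were 5.01 ± 0.56, 4.76 ± 0.223 and 8.35 ± 1.32 FPKM (SD, n = 3), and the Ep2 mean was 1.67-fold of Ctrl. In limma, the log2 fold change was -0.06 in Ep1 (-0.28 to 0.17, adjusted p 0.744) and 0.63 in Ep2 (0.41 to 0.86, adjusted p 0.000652), where Ccl7 was a DEG. Ep2 exceeded Ep1 by 0.69 (0.46 to 0.92, adjusted p 0.000579). The rise lay close to the fold limit of a DEG. It was 0.58 without Ctrl replicate 2 and 0.52 without Ep2 replicate 3, which ended the DEG call but not the pass of the adjusted p. Against Ep1 it was 0.58 without Ep2 replicate 3.

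Ccl2 (ENSMUSG00000035385, chromosome 11, 82035571 to 82037453) held 160, 177 and 170 FPKM in Ctrl. Its Ep1 libraries held 171, 156 and 151 FPKM and its Ep2 libraries 138, 164 and 178 FPKM. The groups overlapped, with 2974 to 3947 fragments in each library. The log2 fold change was -0.08 in both Ep1 (-0.28 to 0.12, adjusted p 0.569) and Ep2 (-0.28 to 0.12, adjusted p 0.471). Because both FPKM values are per length, the level of Ccl7 can be given as a share of Ccl2. The share was 3.0%, 2.59% and 3.33% in Ctrl and 2.84%, 3.15% and 2.98% in Ep1. In Ep2 it was 5.3%, 4.79% and 5.53%, above all other libraries. A two-sided exact permutation test of Ep2 against Ctrl gave p = 0.1, the smallest p that 3 libraries against 3 allow, and this ratio was chosen after its values were seen.

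The other CC chemokine genes beside them on chromosome 11 were low. Ccl8, 67.7 kb from Ccl7, averaged 2.32 ± 0.273, 2.25 ± 0.377 and 3.21 ± 0.898 FPKM (SD, n = 3) over Ctrl, Ep1 and Ep2. Its log2 fold change in Ep2 of 0.32 had an adjusted p of 0.0852 in limma and did not pass. Ccl11, Ccl12 and Ccl1 had 10, 2 and 5 fragments over all 9 libraries.

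**Figure D2:**
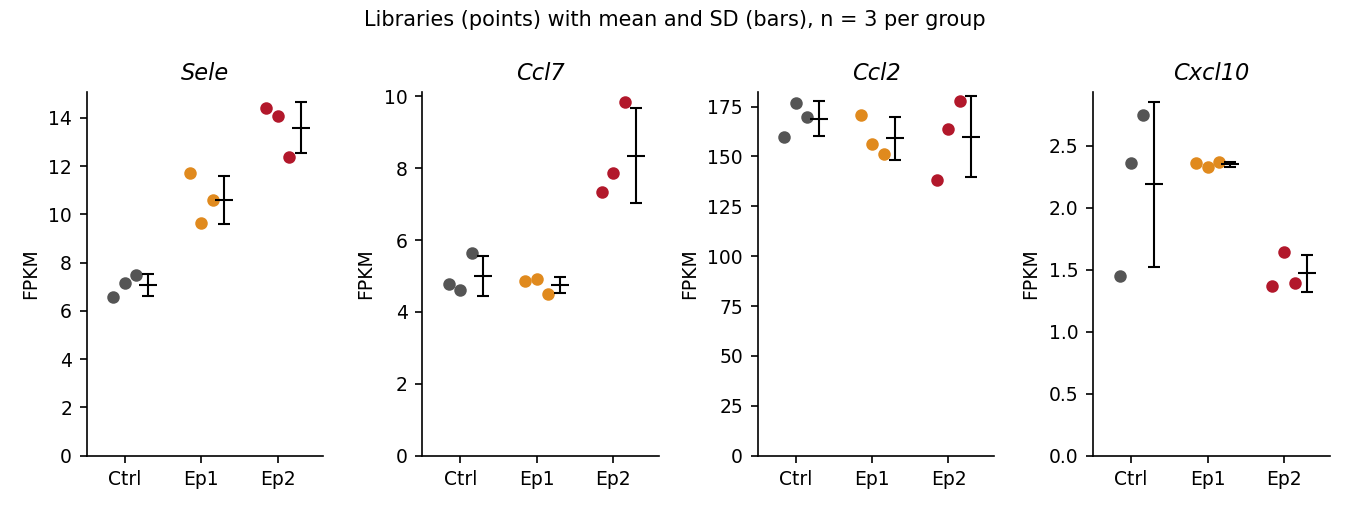
FPKM of Sele, Ccl7, Ccl2 and Cxcl10 in each library (points) with the mean and SD of each group (bars, n = 3), on linear axes from 0. The groups of Sele are separate, the Ep2 libraries of Ccl7 lie above 7 FPKM, and those of Ccl2 overlap with Ctrl.

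Cxcl1 and Cxcl5 attract neutrophils through CXCR2. Cxcl1 did not pass the test in the fit of all libraries, and Cxcl5, below the filter, was not tested in that fit. Cxcl1 (ENSMUSG00000029380, chromosome 5, 90891241 to 90893115) held 7.41, 8.72 and 8.04 FPKM in Ctrl. Ep1 held 8.84, 5.34 and 5.63 FPKM, where replicate 1 was the highest of all 9 libraries and the others were the lowest. Ep2 held 7.19, 7.47 and 8.22 FPKM. The log2 fold change was -0.28 in Ep1 (-0.62 to 0.07, adjusted p 0.256) and -0.07 in Ep2 (-0.41 to 0.28, adjusted p 0.723). The Ep1 value depended on replicate 1, since without it the change was -0.48 with an adjusted p of 0.0305, and Ep2 was then above Ep1 by 0.41 with an adjusted p of 0.00411. Cxcl5 (ENSMUSG00000029371, chromosome 5, 90759360 to 90761624) held 0.724, 0.686 and 1.24 FPKM among Ctrl libraries, 0.581, 0.896 and 0.665 among those of Ep1, and 0.479, 0.947 and 1.33 among those of Ep2. It rested on 17 to 43 fragments per library and its groups overlapped. Where it was tested on the recovered fragments, its log2 fold change was -0.29 in Ep1 (-1.04 to 0.47) and -0.01 in Ep2 (-0.73 to 0.72), with adjusted p of 0.645 and 0.989 in limma. Of their neighbours, Ppbp, 6.89 kb from Cxcl5, had means of 0.971, 0.924 and 1.47 FPKM in Ctrl, Ep1 and Ep2, and Cxcl2, 10.8 kb from Cxcl1, had 0.36, 0.172 and 0.241 FPKM. Pf4 and Cxcl3 had 50 and 21 fragments over all libraries and Cxcl15 had 0.

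Cxcl10 is the interferon-inducible ligand of CXCR3 on activated T cells, and it was lower in Ep2 than in Ep1 (ENSMUSG00000034855, chromosome 5, 92346638 to 92348889). The Ctrl libraries were spread widely, at 1.45, 2.36 and 2.75 FPKM. Those of Ep1 were alike at 2.36, 2.33 and 2.37 FPKM, and those of Ep2 held 1.37, 1.64 and 1.39 FPKM. All Ep2 libraries were thus below all Ep1 libraries, while Ctrl replicate 1 lay within the range of Ep2. The log2 difference of Ep2 from Ep1 was -0.44 (-0.75 to -0.14), with an adjusted p of 0.0256 in limma and a ratio of means of 0.624. Against Ctrl, the change was -0.35 in Ep2 (adjusted p 0.0558) and 0.10 in Ep1 (adjusted p 0.682), and neither passed. Without Ctrl replicate 1, the Ep2 change was -0.53 with an adjusted p of 0.00144. The pass between the doses was lost without the filter on low genes, with an adjusted p of 0.0719, and without Ep1 replicate 1, 2 or 3 or Ep2 replicate 1 or 3, with adjusted p from 0.0601 to 0.0669. The 2 other CXCR3 ligand genes beside it, Cxcl9 and Cxcl11, were near 0, with 26 and 21 fragments over all libraries.

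Cxcl12, whose product SDF-1 holds CXCR4-bearing cells at the vessel wall, had 0 fragments in all 9 libraries (ENSMUSG00000061353, chromosome 6, 117168535 to 117181367). A count of 0 allows up to 3 fragments, or 0.0188 to 0.0221 FPKM depending on the library, for counting error only. Its receptor gene Cxcr4 had 34 fragments over all libraries.

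Cx3cl1 encodes fractalkine, a membrane-bound chemokine that also acts as an adhesion molecule for cells with CX3CR1 (ENSMUSG00000031778, chromosome 8, 94772009 to 94782427). Its libraries held 31.4, 29.9 and 28.2 FPKM in Ctrl and 29.7, 28.2 and 28.4 in Ep1. In Ep2 they held 21.6, 31.1 and 30.7 FPKM, where replicate 1 was the lowest of all. The groups overlapped and no change passed the test. The log2 fold change was -0.05 in Ep1 (-0.33 to 0.22, adjusted p 0.813) and -0.12 in Ep2 (-0.39 to 0.16, adjusted p 0.438). Ccl17 and Ccl22, the chemokine genes beside it, had 25 and 7 fragments over all libraries.

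The tested members can be counted against all genes, as a description only, since they were chosen with earlier results of these data known. In Ep1, 1 of the 7 genes passed the adjusted p, where 11.3% of all tested genes did, and 0 were DEGs, where 0.793% of all genes were. Sele was that 1 gene. In Ep2, 2 of 7 passed, both higher, where 53.2% of all tested genes passed in either direction and 23.9% were higher. Both, Sele and Ccl7, were DEGs, where 9.17% of all genes were DEGs, 3.3% higher and 5.87% lower. Between Ep2 and Ep1, 3 of 7 passed, where 44% of all genes did, with Sele and Ccl7 higher and Cxcl10 lower. Ccl7 was the 1 member DEG there and was higher, where 5.9% of all genes were DEGs, 1.94% higher and 3.97% lower. The median log2 fold change of the 7 members was -0.05 in Ep1, -0.08 in Ep2 and 0.00 between the doses, beside -0.01, -0.03 and -0.01 over all tested genes. The comparisons with Ctrl share the Ctrl libraries. The split of DEGs depended on scaling. In Ep2, 387 genes were higher and 688 lower, against 494 and 551 after each library was centred on its median, and 1159 and 1048 by voom on recovered fragments, which left the calls of Sele and Ccl7 as they were.

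**Figure D3:**
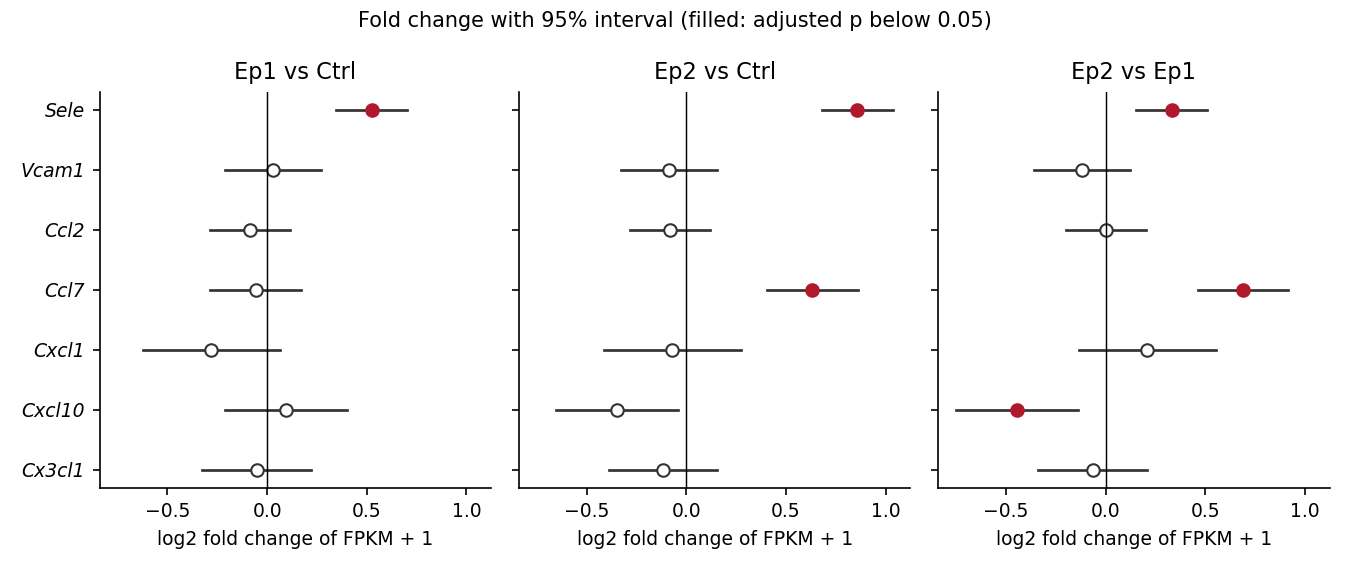
log2 fold change of FPKM + 1 with its 95% interval for the 7 tested genes in Ep1 against Ctrl, Ep2 against Ctrl and Ep2 against Ep1, with filled points for an adjusted p below 0.05. Sele is filled in all 3 panels, Ccl7 in both panels with Ep2, and Cxcl10 between the doses.

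Ep2 replicate 1 stood low for several members. Over all genes, it differed from Ep2 replicates 2 and 3 by 9.16 and 13.8 times counting noise (chi-square per degree of freedom). Replicates 2 and 3 of Ep2 differed by 4.64, and pairs within Ctrl or Ep1 by at most 5.25. Ep2 replicate 1 was the lowest of all 9 libraries for Vcam1, Ccl2, Cx3cl1, Cxcl5 and Cxcl10. It was the lowest of the Ep2 libraries for Cxcl1 and Ccl7, while for Sele it was the highest. The share of all tested genes for which this library was the lowest was not counted. Whether its low levels are particular to these members was therefore not tested. Without it, the log2 fold changes in Ep2 of Vcam1, Ccl2 and Cx3cl1 were 0.04, 0.02 and 0.05 and did not pass the test. Across the 9 libraries, Pearson's r of log2(FPKM + 1) was 0.803 between Vcam1 and Ccl2. It was 0.765 between Ccl2 and Cx3cl1 and 0.746 between Vcam1 and Cx3cl1. These r values include Ep2 replicate 1, the lowest library for all 3 genes, and may rest on it, since r without it was not computed. For Sele and Ccl7, r was 0.653, for Ccl7 and Cxcl10 it was -0.67, and for the neighbours Ccl2 and Ccl7 it was 0.0749. These values describe 9 libraries that share 3 groups, and carry no test.

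The genes whose levels followed each member most closely were named by the same measure. For Sele these were Kif5b (r = 0.986), the EGF receptor ligand gene Areg (0.984) and Ube2q2 (0.982). For Ccl7 they were Tigit (0.986), Fam8a1 (0.986) and Dnajc25 (0.982), and for Cxcl10 Tmem38b (0.951), Fam3c (0.946) and Ctnnbip1 (0.939). For Vcam1 they were Hddc2 (0.958), Hsph1 (0.955) and mt-Rnr2 (0.938), and for Ccl2 Krt27 (0.932), Lyst (0.928) and Kmt2a (0.909). For Cxcl1 they were Gbp2 (0.917), Dnmt3a (0.91) and Trmt1l (0.896), and for Cx3cl1 Nek6 (0.967), Ptms (0.958) and Mrps6 (0.958). With 11727 genes and 9 libraries, high values of r are common.

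Around the members, 8 lists of 121 related genes were examined, of which 46 were tested. The lists were chosen with earlier results of these data known, so their counts are a description only. In Ep1, 2 of the 46 were higher and 2 lower, where 6.32% and 4.97% of all genes were. In Ep2, 22 were higher and 5 lower, where 23.9% and 29.3% of all genes were, and the median log2 fold change was 0.19 against -0.03 for all genes. Between Ep2 and Ep1, 21 were higher and 5 lower, where 18.8% and 25.2% of all genes were.

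Receptors for the signals that induce adhesion molecules were higher in Ep2, in 10 of 13 tested genes, with none lower and a median log2 fold change of 0.24. Of all tested genes, 23.9% were higher and 29.3% lower, with a median of -0.03. Of the receptors, 10 of 13 were also higher after median centring and 10 of 14 with voom. Their median log2 fold change was then 0.28 and 0.29, against 0.02 and 0.01 over all tested genes. The shares of all tested genes that were higher under these 2 settings were not counted. The weakest of the 10, Tnfrsf1b (adjusted p 0.0362), named after its values were seen, lost its pass in 8 of the 17 alternatives, with adjusted p from 0.0505 to 0.119, and Il6st lost it without Ctrl replicate 1 (0.0507). Tlr4, the receptor of bacterial lipopolysaccharide, rose in Ep2 to 14.5 ± 1.04 FPKM, from 8.01 ± 0.278 for Ctrl and 8.93 ± 0.343 for Ep1 (SD, n = 3). Its log2 fold change in Ep2 was 0.78 with an adjusted p of 1.02e-05 in limma, and it was a DEG. Lifr, the receptor of leukemia inhibitory factor, rose by 0.49 (adjusted p 0.000304) and Tnfrsf1a, the main TNF receptor, by 0.30 (adjusted p 0.000726). Tnfrsf1a was also the most abundant, at 48.8 in Ctrl and 60.1 FPKM in Ep2. In Ep1, 0 of the 13 passed in limma, where 11.3% of all tested genes did.

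Among 5 tested selectins and selectin ligands, 1 was higher and 2 were lower in Ep2. Of all tested genes, 23.9% were higher and 29.3% lower. Cd44, a hyaluronan receptor that can carry selectin ligands, was higher in both Ep1, by 0.23 (adjusted p 0.0102), and Ep2, by 0.19 (adjusted p 0.00235). It stood at 84.4, 99.5 and 96.6 FPKM in Ctrl, Ep1 and Ep2. The Ep1 pass was lost without Ctrl replicate 2 (adjusted p 0.0544) or Ep1 replicate 3 (0.0514). Podxl, a sialomucin of the endothelial surface, was lower in Ep2 at 11.7 ± 1.88 FPKM, against 18.9 ± 0.268 for Ctrl (SD, n = 3). On the log2 scale it changed by -0.66 (adjusted p 0.000384, limma), and by -0.53 without Ep2 replicate 1, which ended its DEG call. Selp, the gene of P-selectin, was lower by -0.26 in Ep2 (adjusted p 0.0393), and this pass was lost in 8 of the 17 alternatives. These were median centring (0.0803), no filter (0.0924), a fit of only the groups compared (0.0676), and fits without Ctrl replicate 1 or 2, Ep1 replicate 3 or Ep2 replicate 2 or 3 (0.0566 to 0.131).

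Of 7 tested adhesion molecules of the immunoglobulin and other types, 3 were higher and 0 lower in Ep2. Over all tested genes, the shares were 23.9% and 29.3%. Pvr, the poliovirus receptor, which takes part in the passage of leukocytes between endothelial cells, rose at both doses. Its mean was 21.7 ± 0.649, 30.9 ± 2.62 and 42.3 ± 2.04 FPKM (SD, n = 3) for Ctrl, Ep1 and Ep2, with log2 fold changes of 0.49 (adjusted p 0.0056) and 0.93 (adjusted p 6.53e-06, limma). Cd47, the ligand of SIRPα, and F11r, the junctional adhesion molecule JAM-A, rose by 0.31 and 0.40 in Ep2 with adjusted p of 0.000284 and 0.00188.

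Enzymes that shed adhesion molecules and proteins that tie them to the cell cortex moved in both directions in Ep2. Of 12 tested genes, 6 were higher and 3 lower, where 23.9% and 29.3% of all tested genes were. Adam8, a membrane protease that can shed selectins, rose in Ep2 to 16.0 ± 4.37 FPKM, from 8.76 ± 0.561 for Ctrl (SD, n = 3). On the log2 scale it rose by 0.78 (adjusted p 0.00218, limma), and by 0.57 without Ep2 replicate 1, which held 21.1 FPKM, so that it was then no DEG. The linkers Actn1 and Msn rose by 0.37 and 0.27, with adjusted p of 7.26e-05 and 0.000585, and Ezr, the most abundant at 131 FPKM in Ctrl, by 0.23 with an adjusted p of 0.00228. Actn4, Rhbdf1 and Adam15 were lower, at -0.26, -0.22 and -0.30, with adjusted p of 0.000636, 0.00492 and 0.00738. Adam17, which sheds fractalkine and VCAM-1, was at 15.7, 16.2 and 16.1 FPKM in Ctrl, Ep1 and Ep2 and did not pass (adjusted p 0.504 in Ep2). Rhbdf1 was also lower in Ep1 by -0.20 (adjusted p 0.0367), a pass that was lost in 10 of the 17 alternatives.

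The remaining lists held few expressed genes. Of the other CC chemokines, 4 of 20 were tested and Ccl25 was higher in Ep2 by 0.34 (adjusted p 0.00978), at 1.08 in Ctrl and 1.64 FPKM in Ep2. Ccl5, the highest of them, stood at 8.89, 6.9 and 7.09 FPKM in Ctrl, Ep1 and Ep2 and did not pass in Ep2 (adjusted p 0.135). Of 12 other CXC chemokines and chemokine-like genes, Mif and Ppbp were tested and neither passed in Ep1 or Ep2, with Mif at 937, 834 and 857 FPKM. None of 22 chemokine receptors and decoys reached the filter, and their summed level was 1.99 to 2.29 FPKM in Ctrl and 2.91 to 3.3 in Ep2. Among myeloid growth factors, Csf1, which supports monocytes and macrophages, was lower in Ep1 at 19.4 ± 0.451 FPKM against 24.9 ± 0.427 in Ctrl (SD, n = 3; log2 fold change -0.34, adjusted p 0.00742 in limma) and stood at 25.4 ± 1.58 FPKM in Ep2. Il34, which acts on the same receptor, was higher in Ep2 by 0.22 (adjusted p 0.0131), a pass that was lost without Ctrl replicate 2 (0.0531).

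**Figure D4:**
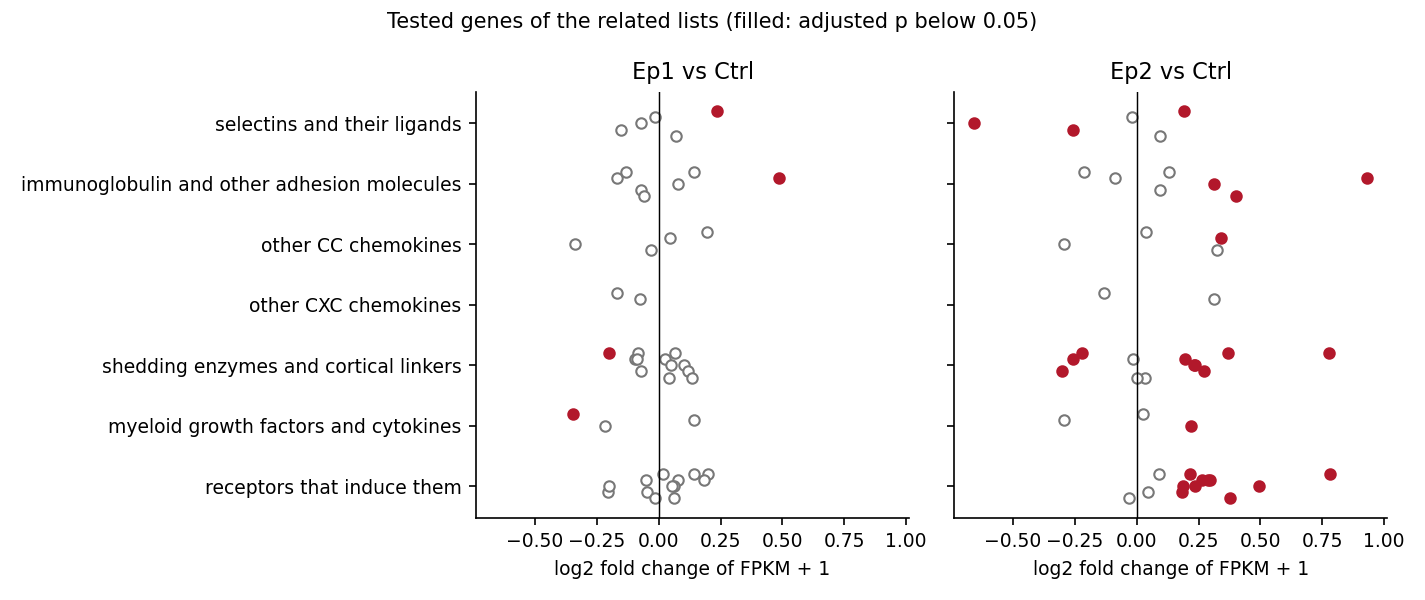
log2 fold change of FPKM + 1 of the 46 tested genes of the related lists in Ep1 and Ep2 against Ctrl, one row for each list with tested genes, with filled points for an adjusted p below 0.05. In Ep2, 22 filled points lie to the right of 0 and 5 to the left, and 10 of those to the right are inducing receptors. Of all tested genes, 23.9% were higher and 29.3% lower in Ep2.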

How the data were processed

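Total RNA of 9 B.END3 libraries was sequenced, 3 per group, and groups were taken from the library names. The authors deposited 1 FPKM value per gene and library. The submitters' processing notes list Bowtie 0.12.2 and mm8, and the methods name GRCm39. The listed coordinates overlapped the GRCm38.p6 position for 99.9% of 37624 genes compared and the GRCm39 position for 10.9% of 50453, so positions are given on GRCm38. The tool that counted the reads is not given in the sources used here. The single-library tables equal the joint table, with 0 genes that differ. FPKM times gene length gave whole fragments within 0.05 of a whole number. Depth was 16240688 to 19509225 fragments per library. Within groups, libraries differed by 2.7 to 13.8 times counting noise (chi-square per degree of freedom), so no pair held the same library.

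Genes of at least 1 FPKM in at least 3 libraries were tested on log2(FPKM + 1) with limma 3.58.1 in R 4.3.3 (eBayes with a trend, robustly, and no covariate). Tried besides were a replicate block, median centring, all 26717 genes above 0 in any library, a filter at 5 FPKM, a pseudocount of 0.1, fits of just the groups compared, plain eBayes, no minimum fold, voom on genes of at least 10 recovered fragments in at least 3 libraries, and the omission of each library. On simulated data with 200 changed genes, the test called 180, with 5 false calls, among 11546 genes for Ep2 against Ctrl. All simulated libraries were built on the Ctrl means, with 1 fixed spread between replicates for all genes and groups. The Ep2 libraries differed by up to 13.8 times counting noise, so the 5 false calls do not give the error rate for Ep2. In the libraries themselves, far more genes passed for Ep2 against Ctrl, 6236 of 11727. How often the test calls the smaller changes reported here was not tested. The members and lists were chosen with earlier results of these data known. Named genes were the members, the 3 genes nearest to each by correlation, chromosomal neighbours among chemokines, and per list the most abundant gene and up to 3 higher and 3 lower genes of smallest adjusted p. Sequences came from RefSeq promoter windows for 6 of 10 members. Protein features were not analysed here. Tables and plots were made with pandas 2.3.3, numpy 2.4.6, scipy 1.17.1 and matplotlib 3.10.9 in Python 3.11.15.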

Additional observations from a re-analysis of the deposited data

How the results depend on the processing

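Sele passed the adjusted p in all 3 comparisons, and Ccl7 in both comparisons with Ep2, under each of the 17 alternatives. Same-numbered libraries did not deviate together (correlations of -0.0565 to 0.0744, against -0.108 to 0.153 for other numbers), and with the replicate block Sele had adjusted p of 0.0217, 0.000275 and 0.0187, Ccl7 had 0.0013 and 0.00133, and the block changed no call of a member. Of the list genes in Ep1 and Ep2, it ended the pass of Rhbdf1 in Ep1 (0.0577) and Tnfrsf1b in Ep2 (0.0542), while the counts of 4 and 27 list genes past the adjusted p were equal with it. Without a minimum fold change, 1, 2 and 3 members were called in Ep1, Ep2 and Ep2 against Ep1, and 4, 27 and 26 genes of the related lists. With the minimum, 0 members and 0 list genes were DEGs in Ep1, 2 and 4 in Ep2, and 1 and 2 between the doses. Between the doses, 2 members were DEGs with a pseudocount of 0.1 and 2 with voom, and 4 and 7 list genes. In Ep2, voom called 10 list genes as DEGs. In Ep1, 4 list genes passed the adjusted p, against 10 in a fit of the groups compared and 7 with voom. Leaving out 1 library at a time gave 1 to 2 members past the adjusted p in Ep1, 1 to 2 member DEGs in Ep2 (1 without Ctrl replicate 2 or Ep2 replicate 3) and 0 to 1 between the doses (0 without Ep2 replicate 3). It gave 2 to 9 list genes past the adjusted p in Ep1 (2 without Ctrl replicate 2 or Ep1 replicate 3, 9 without Ep2 replicate 1) and 2 to 4 list DEGs in Ep2 (2 without Ep2 replicate 1). The log2 fold changes that changed sign on leaving out a library ranged in Ep1 from -0.03 to 0.08 for Vcam1, -0.11 to 0.02 for Ccl7 and -0.08 to 0.22 for Cxcl10. In Ep2 they ranged from -0.16 to 0.04 for Vcam1, -0.16 to 0.02 for Ccl2 and -0.20 to 0.05 for Cx3cl1, and between the doses from -0.19 to 0.00 for Vcam1, -0.08 to 0.10 for Ccl2 and -0.15 to 0.10 for Cx3cl1. None of these passed the test in limma when a library was left out. The cause was not tested. Depth limits Icam1, at 2 to 12 fragments, and Cxcl5, at 17 to 43, and a count of 0 for Cxcl12 allows 3 fragments per library.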
